A study of Homo sapiens with 30 samples.

Results

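The 10 genes described here encode secreted insulin-like growth factor (IGF) binding proteins, the receptor and adaptor that pass an IGF signal into the cell, and a pair of FOXO transcription factors at its end. They are IGFBP1, IGFBP3, IGFBP4, IGFBP5, IGFBP6, IGFBP7, IGF1R, IRS2, FOXO1 and FOXO3, chosen by name from a table of 60675 genes. Values in these samples led to the choice: IGFBP1 was higher with a higher dose of Samul-tang and FOXO1 was lower with a higher dose of Sibjeondaebo-tang, so both of those dose series are given as description, without a test. All 10 were among the 17839 genes that passed the filter on low counts.

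RNA was sequenced from SW1783, an established human astrocytoma line grown in culture, after 24 h with an extract used in traditional Korean medicine or with vehicle. Water extracts of the herbal formulas Palmul-tang and Sibjeondaebo-tang were each given at 20, 100 and 500 µg/mL in 3 libraries per dose. A water extract of the formula Samul-tang and ethanol extracts of Poria Cocos and of Atractylodis Rhizoma were each given at the same 3 doses in 1 library per dose. The vehicle was 0.1% DMSO, in 3 libraries, which makes 30 libraries in 16 groups. No DMSO share is labelled for the treated libraries. The series description names another DMSO share, and the positive controls it mentions were not analysed here. The titles of all 30 libraries carry the label BatchC. The vehicle libraries carry a sample code set that no treated library has, and what the codes stand for is not labelled. Treatment and any handling that the codes mark therefore cannot be told apart in any comparison with vehicle. Code sets also differ between Samul-tang, Palmul-tang with Sibjeondaebo-tang, and Poria Cocos with Atractylodis Rhizoma. Extract and handling cannot be told apart in comparisons between those sets either. Whether replicates were grown as separate cultures is not labelled, so each p-value reflects only how far these libraries spread, which may be technical.

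Library totals lay between 22.57 M and 37.82 M counts. Of 11 astrocyte markers, GFAP, S100B, AQP4 and ALDH1L1 were at or below 0.183 CPM (counts scaled to a common library size by TMM, the trimmed mean of M-values) in every library and did not pass the filter, while VIM had a median of 4970 CPM, GJA1 of 251 and SOX9 of 66.8. Sibjeondaebo-tang at 500 µg/mL replicate 3 stood apart from its group: its counts differed from those of replicates 1 and 2 by a chi-square per gene of 8.953 and 8.062, against 2.78 between replicates 1 and 2. In the other groups pairs differed by 2.187 to 4.418, except replicates 1 and 2 of Sibjeondaebo-tang at 100 µg/mL, at 7.309. Values at that dose are therefore also given without it.

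IGF binding proteins capture IGF1 and IGF2 outside the cell, prolong their life and keep them from, or carry them to, the receptor IGF1R. The activated receptor phosphorylates IRS adaptors, which recruit phosphoinositide 3-kinase and so activate AKT, and AKT holds FOXO1 and FOXO3 out of the nucleus. In the nucleus FOXO factors switch on genes that insulin restrains, of which IGFBP1 and IRS2 in the liver are well-known examples.

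Start-site sequences were looked up for the 10 genes in RefSeq on GRCh38.p14, and 8 of them matched, with 4 entries for FOXO3; IGFBP1 and IGFBP7 did not. The 250 bases before each RefSeq start were searched on both strands for the letters TGTTTAC, the core of the forkhead site, and CAAAACA, the core of the insulin response element (TGTTTTG on the other strand, which shares its first 5 letters with the forkhead core). Of 35116 windows of that length, 2.98% held the first and 4.3% the second. Among the 8 genes, IGFBP6 held the forkhead core and IRS2 the insulin response core, each read on the opposite strand and shown in capitals, while FOXO1, shown for its dose series, held neither. The IGFBP6 match lies at -186 and the IRS2 match at -40, counted from the start. They are printed from 5′ to 3′ on the strand of each gene.
IGFBP6 (chr12:53097417-53097666, plus strand): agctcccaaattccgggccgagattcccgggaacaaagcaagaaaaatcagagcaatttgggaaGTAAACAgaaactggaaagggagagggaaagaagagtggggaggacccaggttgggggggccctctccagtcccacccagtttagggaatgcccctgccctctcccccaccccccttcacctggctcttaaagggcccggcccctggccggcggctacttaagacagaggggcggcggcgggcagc
IRS2 (chr13:109786584-109786833, minus strand): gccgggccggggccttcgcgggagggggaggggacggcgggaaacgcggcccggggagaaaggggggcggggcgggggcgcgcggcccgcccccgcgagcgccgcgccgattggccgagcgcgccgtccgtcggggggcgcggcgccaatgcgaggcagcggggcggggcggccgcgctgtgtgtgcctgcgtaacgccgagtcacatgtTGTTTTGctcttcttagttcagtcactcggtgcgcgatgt
FOXO1 (chr13:40666642-40666891, minus strand): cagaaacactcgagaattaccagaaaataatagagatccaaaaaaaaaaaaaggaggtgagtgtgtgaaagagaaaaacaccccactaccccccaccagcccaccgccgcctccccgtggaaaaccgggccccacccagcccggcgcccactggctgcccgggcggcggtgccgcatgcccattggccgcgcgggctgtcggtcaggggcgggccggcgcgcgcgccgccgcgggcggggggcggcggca

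IGFBP1 (ENSG00000146678, chromosome 7, 45888357 to 45893668 in GRCh38), the binding protein whose liver production insulin restrains, was higher with each step in dose in 5 of 5 extracts. The 5 include Samul-tang, the series that led to the choice of IGFBP1. Counts of extracts, here and below, are description: the share of all tested genes with the same order in each extract was not computed. The extracts are also not independent, since Sibjeondaebo-tang holds the herbs of Palmul-tang. In Palmul-tang it read 22.2, 20.0 and 17.5 CPM at 20 µg/mL, 28.2, 24.1 and 26.3 CPM at 100 and 37.0, 34.8 and 36.4 CPM at 500, beside 22.2, 23.4 and 20.5 CPM in vehicle. All libraries at 500 lay above all those at 100, which in turn lay above all those at 20, while the libraries at 20 overlapped vehicle. At 500 against 20 µg/mL 12% of all tested genes were higher without overlap, and the share separated over all doses was not computed. At 500 over 20 µg/mL it rose 1.81-fold (95% interval 1.65 to 1.99; log2 0.86 ± 0.0703 SE, edgeR quasi-likelihood test, Benjamini-Hochberg adjusted p = 1.21e-10). At 500 over 100 µg/mL, a comparison chosen once values had been seen, the log2 fold change was 0.46 (adjusted p = 3.61e-05) and at 100 over 20 it was 0.40 (adjusted p = 0.00675). The call at 100 over 20 ended without Palmul-tang 100 replicate 1 (adjusted p = 0.142), without Palmul-tang 20 replicate 2 (0.0532) or replicate 3 (0.137), and with only the compared groups in the fit (0.112). Against vehicle IGFBP1 was higher at 500 µg/mL, at log2 0.71 ± 0.0705 (adjusted p = 3.65e-09), whereas at 20 µg/mL the log2 fold change was -0.14 (adjusted p = 0.183), and -0.23 without Palmul-tang 20 replicate 1 (adjusted p = 0.0366).

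The dose series that led to the choice of IGFBP1 was that of Samul-tang, whose single libraries read 18.4 CPM at 20 µg/mL, 24.7 at 100 and 47.2 at 500, the highest value of the 30 libraries. Exact Poisson intervals at 95%, which cover counting error only, were 16.8 to 20.1 CPM at 20 and 22.8 to 26.7 at 100, and the interval at 500 began at 44.5. Sibjeondaebo-tang read 20.3, 19.8 and 18.4 CPM at 20 µg/mL, 23.4, 26.7 and 23.6 at 100 and 41.8, 39.0 and 38.6 at 500, without overlap between any of its doses. The share of all tested genes so separated in Sibjeondaebo-tang was not computed. The Sibjeondaebo-tang mean of IGFBP1 at 500 over that at 20 was 2.04-fold, and 2.07-fold without replicate 3 at 500. In the single Poria Cocos libraries IGFBP1 read 21.0, 28.1 and 33.6 CPM from 20 to 500 µg/mL, and in the single Atractylodis Rhizoma libraries 16.2, 19.7 and 27.1. The ratio of 500 to 20 µg/mL was 2.56 in Samul-tang, where 5.17% of all tested genes were at least 1.5-fold higher. It was 1.60 in Poria Cocos and 1.67 in Atractylodis Rhizoma, with 4.84% and 5.01% of genes so much higher. These single libraries have no replicate check.

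Ordered by level, the IGFBP1 means at 500 µg/mL came first in Samul-tang (47.2 CPM), Sibjeondaebo-tang (39.8 ± 1.77, SD, n = 3), Palmul-tang (36.1 ± 1.14, n = 3) and Poria Cocos (33.6). All Sibjeondaebo-tang libraries at 500 lay above those of Palmul-tang. Below them Poria Cocos at 100, Atractylodis Rhizoma at 500 and Palmul-tang, Samul-tang and Sibjeondaebo-tang at 100 lay between 28.1 and 24.6 CPM, and each single library there fell within the range of a replicated group. Vehicle averaged 22.02 ± 1.49 CPM (n = 3), and its highest library lay just under the lowest of Sibjeondaebo-tang at 100. The remaining 6 groups lay between 21.0 and 16.2 CPM, the lowest being Atractylodis Rhizoma at 20 µg/mL. Over its 3 doses Poria Cocos averaged above vehicle for IGFBP1, by 0.30 on the log2 scale (edgeR, adjusted p = 0.00208), but without its 500 µg/mL library the value was 0.14 (adjusted p = 0.23). For Atractylodis Rhizoma the same value was -0.10 (adjusted p = 0.367), and without its 500 µg/mL library it was -0.30 (adjusted p = 0.0105), while without its 20 µg/mL library it was 0.07 (adjusted p = 0.574). In both averages each dose has 1 library, assumed to vary like the replicated groups.

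**Figure D1:**
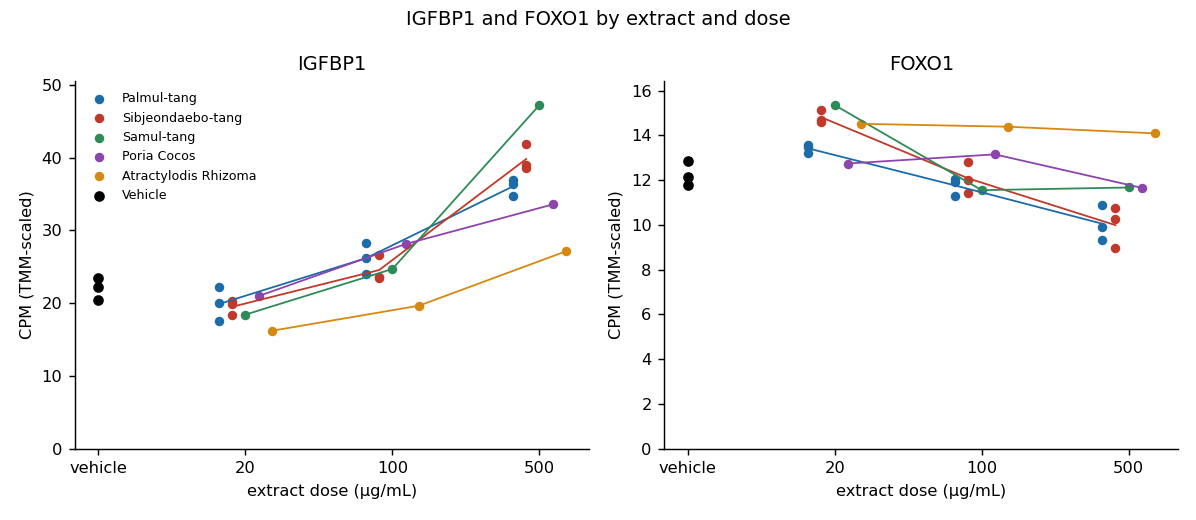
CPM of IGFBP1 and FOXO1 in every library against extract dose in µg/mL, with vehicle at the left; points are libraries and lines join the mean at each dose. IGFBP1 is higher at each higher dose in all 5 extracts and reaches 47.2 CPM in Samul-tang, while FOXO1 at 500 µg/mL lies below 20 µg/mL in all 5, least so in Atractylodis Rhizoma. The Samul-tang series of IGFBP1 and the Sibjeondaebo-tang series of FOXO1 led to their choice.

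FOXO1 (ENSG00000150907, chromosome 13, 40469953 to 40666597), which AKT restrains, was lower at 500 than at 20 µg/mL in 5 of 5 extracts, with ratios from 0.675 to 0.971. The ratio of 0.675 is that of Sibjeondaebo-tang, the series that led to the choice of FOXO1. The next lowest was 0.749, in Palmul-tang. In Palmul-tang it read 13.6, 13.5 and 13.2 CPM at 20 µg/mL, 12.1, 11.9 and 11.3 at 100 and 9.92, 9.34 and 10.9 at 500, beside 12.9, 12.1 and 11.8 CPM in vehicle. No library of one Palmul-tang dose overlapped another dose, and the vehicle libraries lay between those at 20 and those at 500. At 500 against 20 µg/mL 11.6% of all tested genes were lower without overlap, and the share separated over all doses was not computed. FOXO1 fell at 500 against 20 µg/mL by 0.41 ± 0.0732 on the log2 scale (edgeR, adjusted p = 2.06e-04) and against vehicle by 0.28 (adjusted p = 0.00427). At 100 against 20 µg/mL the log2 fold change was -0.19 (adjusted p = 0.891), and at 20 µg/mL against vehicle it was 0.13 (adjusted p = 0.212). Exons of FOXO1 overlap those of the noncoding gene LINC00598 on the same strand over 269 bases in GENCODE release 29, so reads there cannot be assigned to either with certainty.

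In Sibjeondaebo-tang, the series that led to the choice of FOXO1, it read 14.6, 14.7 and 15.1 CPM at 20 µg/mL, 11.4, 11.99 and 12.8 at 100 and 10.7, 10.2 and 8.98 at 500. The lowest of the 30 libraries, 8.98 CPM, was replicate 3 at 500, and the ratio of 500 to 20 µg/mL was 0.675 with it and 0.709 without it. Samul-tang read 15.3 CPM at 20 µg/mL, 11.6 at 100 and 11.7 at 500, with Poisson intervals of 13.9 to 16.9, 10.3 to 13.0 and 10.3 to 13.1. Poria Cocos read 12.7, 13.1 and 11.7 CPM and Atractylodis Rhizoma 14.5, 14.4 and 14.1 CPM from 20 to 500 µg/mL, and within each extract the Poisson intervals overlapped. Averaged over its doses, Atractylodis Rhizoma was above vehicle for FOXO1 by 0.22 in log2 (adjusted p = 0.0177). That call ended without vehicle replicate 3 (adjusted p = 0.0819) and with DESeq2 (adjusted p = 0.0533). Poria Cocos had a FOXO1 log2 fold change of 0.03 against vehicle (adjusted p = 0.841).

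FOXO3 (ENSG00000118689, chromosome 6, 108559835 to 108684774), the paralog of FOXO1, had no called dose change. In Palmul-tang it read 82.2, 85.5 and 88.8 CPM at 500 µg/mL, against 83.0, 88.4 and 83.5 CPM at 20, and these overlapped (log2 fold change 0.01, edgeR, adjusted p = 0.939). All 27 treated libraries, between 75.7 and 90.0 CPM with a median of 84.3, lay below the lowest of the vehicle libraries, which ran from 92.5 to 95.7 CPM; 7.44% of all tested genes had every treated library below every vehicle library, among them FOXO3, IGFBP3 and IGFBP7. FOXO3 fell against vehicle in Palmul-tang at 500 µg/mL by 0.14 on the log2 scale (adjusted p = 0.00377), in Poria Cocos by 0.25 (adjusted p = 3.83e-06) and in Atractylodis Rhizoma by 0.17 (adjusted p = 7.61e-04). Per kilobase of exon, vehicle libraries averaged 12.2 CPM for FOXO3 and 1.97 CPM for FOXO1.

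Over the 10 genes, Palmul-tang at 500 against 20 µg/mL had 2 that rose, 1 that fell and 7 that were not called, where 5.3% of all tested genes were called, 2.83% higher and 2.47% lower. The median log2 fold change of the 10 was -0.03, and that of all tested genes was 0.00. Libraries at 500 and 20 µg/mL did not overlap for IGFBP1 and IGFBP5, which were higher, and for IGFBP6, IGF1R and FOXO1, which were lower; among all tested genes 12% were higher and 11.6% lower without overlap. At 100 against 20 µg/mL only IGFBP1 of the 10 was called, with 0.163% of all genes called and 0.146% higher. At 500 against 100 µg/mL IGFBP1 rose and IGFBP3 and IGF1R fell, with 2.49% of all genes called, 1.35% higher and 1.15% lower. Leaving out Palmul-tang 500 replicate 1 or 3, or any library at 100, left IGFBP1 as the only call, and leaving out Palmul-tang 500 replicate 2 ended the call of IGF1R. Both calls ended with no filter on low counts (adjusted p = 0.0823 for IGFBP3 and 0.0761 for IGF1R), and that of IGF1R also with DESeq2 (0.0824) and with only the compared groups in the fit (0.0509).

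**Figure D2:**
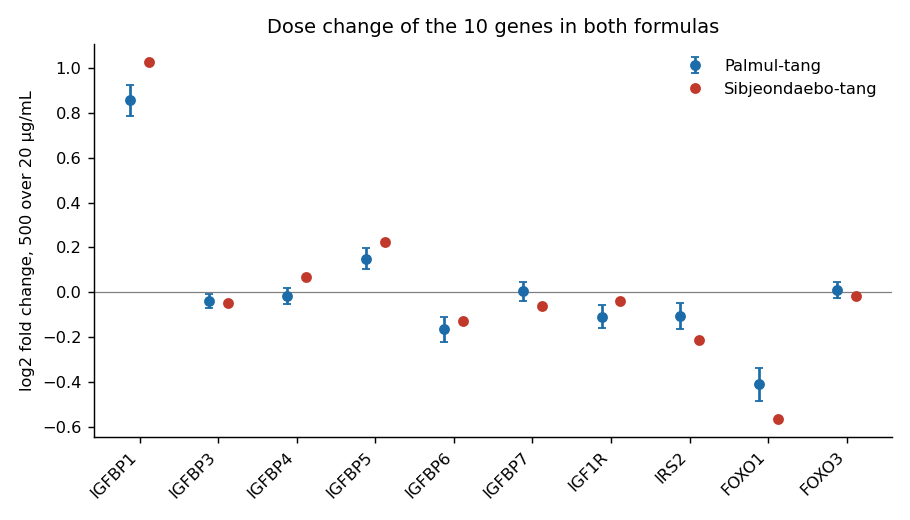
Log2 fold change of the 10 genes at 500 over 20 µg/mL in Palmul-tang and in Sibjeondaebo-tang; points are estimates of the edgeR fit with 3 libraries per dose, and bars, for Palmul-tang alone, are ± 1 SE. In Palmul-tang IGFBP1 lies at 0.86, FOXO1 at -0.41 and the other 8 between -0.16 and 0.15; the Sibjeondaebo-tang values, which led to the choice, are shown as description.

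IGFBP5 (ENSG00000115461, chromosome 2, 216672105 to 216695525), a binding protein that attaches to extracellular matrix, read 57.3, 58.8 and 60.7 CPM in Palmul-tang at 500 µg/mL, against 52.5, 54.0 and 52.9 CPM at 20. The libraries did not overlap and the rise was 1.11-fold (log2 fold change 0.15 ± 0.0453, edgeR, adjusted p = 0.0441). Leaving out any 1 of the 6 libraries ended that call, with adjusted p between 0.051 and 0.197, and so did fitting without a filter on low counts (0.0552). Vehicle libraries ran from 59.6 to 64.5 CPM. Against vehicle, IGFBP5 in Palmul-tang had a log2 fold change of -0.24 at 20 µg/mL, which was called, and of -0.09 at 500, which was not. In Sibjeondaebo-tang it read 60.7, 67.8 and 67.0 CPM at 500 µg/mL, against 56.1, 53.3 and 57.6 at 20, and the ratio of means was 1.17 with replicate 3 and 1.16 without it. Samul-tang at 500 µg/mL had the highest IGFBP5 of the 30 libraries, 74.0 CPM, against 55.7 CPM at 20. Atractylodis Rhizoma went the other way, with 47.3 CPM at 500, the lowest of the 30, against 57.5 CPM at 20. Its exons overlap an antisense gene over 298 bases.

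IGFBP6 (ENSG00000167779, chromosome 12, 53097436 to 53102345), which prefers IGF2 over IGF1, was lower at 500 than at 20 µg/mL in 5 of 5 extracts, with ratios from 0.818 in Samul-tang to 0.947 in Atractylodis Rhizoma. In Palmul-tang it read 59.0, 61.3 and 61.9 CPM at 500 µg/mL, against 68.4, 68.6 and 67.3 CPM at 20. The libraries did not overlap, but the log2 fold change of -0.16 ± 0.0561 missed the threshold (edgeR, adjusted p = 0.0934), and it passed without a filter on low counts (adjusted p = 0.00899) and with only the compared groups in the fit (0.00255). In Sibjeondaebo-tang at 500 µg/mL replicates 1 and 2 read 57.5 and 55.5 CPM and replicate 3 read 64.5, within the range of 62.5 to 67.7 CPM at 20.

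IGFBP3 (ENSG00000146674, chromosome 7, 45912245 to 45921874), the main IGF carrier of blood plasma, lies 18576 bases from IGFBP1 on the same chromosome. It read 472, 508 and 492 CPM in Palmul-tang at 500 µg/mL and 503, 507 and 503 CPM at 20, against 627, 635 and 620 CPM in vehicle. The 27 treated libraries, from 436 to 552 CPM with a median of 503, all lay below the lowest vehicle library. IGFBP3 fell against vehicle by 0.36 ± 0.0312 on the log2 scale at 500 µg/mL of Palmul-tang (edgeR, adjusted p = 1.08e-10) and by 0.32 at 20 µg/mL (adjusted p = 6.84e-09). It fell by 0.29 in Poria Cocos (adjusted p = 1.69e-08) and by 0.41 in Atractylodis Rhizoma (adjusted p = 7.12e-12). Within the treated libraries its mean was highest at 100 µg/mL in 5 of 5 extracts, at 530 CPM in Palmul-tang, 539 in Sibjeondaebo-tang, 528 in Samul-tang, 526 in Poria Cocos and 494 in Atractylodis Rhizoma. In Palmul-tang the step at 500 over 100 µg/mL gave -0.11 in log2 (adjusted p = 0.0433) and the step at 100 over 20 one of 0.07 (adjusted p = 1).

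IGFBP7 (ENSG00000163453, chromosome 4, 57030773 to 57110385), which binds IGFs weakly and also binds insulin, had the highest level of the 10 per length of exon, 920 CPM per kilobase in vehicle, against 169 for IGFBP4, 137 for IGFBP3, 51.4 for IGFBP6, 13.3 for IGFBP1 and 9.71 for IGFBP5. All 27 treated libraries, from 1449 to 1705 CPM, lay below vehicle, at 1715 to 1838 CPM. In Palmul-tang the log2 fold change was 0.00 at 500 over 20 µg/mL (adjusted p = 0.983) and -0.12 at 500 µg/mL over vehicle (adjusted p = 0.0233). The lowest library was Sibjeondaebo-tang 500 replicate 2, and replicate 3 of that group read 1679 CPM. Exons of IGFBP7 overlap 94 bases of IGFBP7-AS1 and 270 bases of POLR2B on the opposite strand. IGFBP4 (ENSG00000141753, chromosome 17, 40443461 to 40457731), the substrate of the protease PAPPA, differed little: 353, 356 and 331 CPM at 500 µg/mL of Palmul-tang, against 359, 345 and 349 CPM at 20 and 372, 378 and 362 in vehicle. It was below the lowest vehicle library in 24 of 27 treated libraries and above the highest in 2, Samul-tang at 500 and Sibjeondaebo-tang 500 replicate 3.

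IGF1R (ENSG00000140443, chromosome 15, 98648539 to 98964530), the receptor tyrosine kinase, read 27.1, 25.3 and 26.4 CPM in Palmul-tang at 500 µg/mL and 27.7, 29.8 and 27.5 CPM at 20, against 32.0, 30.7 and 32.2 CPM in vehicle. The libraries at 500 lay below those at 20, and both lay below vehicle. At 500 over 20 µg/mL the log2 fold change was -0.11 (edgeR, adjusted p = 0.279), and it was negative in 5 of 5 extracts, with ratios from 0.887 to 0.974. Against vehicle IGF1R fell by 0.27 ± 0.0519 on the log2 scale at 500 µg/mL (adjusted p = 1.40e-04) and by 0.16 at 20 µg/mL (adjusted p = 0.0208). IRS2 (ENSG00000185950, chromosome 13, 109752698 to 109786568), the adaptor that links the receptor to phosphoinositide 3-kinase, read 22.2, 21.3 and 20.7 CPM at 500 µg/mL and 23.0, 24.2 and 21.8 CPM at 20, against 26.0, 28.8 and 26.6 CPM in vehicle. It was below the lowest vehicle library in 26 of 27 treated libraries, the exception being Samul-tang at 20 µg/mL with 27.7 CPM. IRS2 fell by 0.34 ± 0.0567 against vehicle at 500 µg/mL of Palmul-tang (adjusted p = 1.86e-05) and by 0.27 in Poria Cocos (adjusted p = 4.07e-04), and had a log2 fold change of -0.14 in Atractylodis Rhizoma (adjusted p = 0.0571). In Sibjeondaebo-tang at 500 over 20 µg/mL its ratio was 0.862, and 0.848 without replicate 3.

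**Figure D3:**
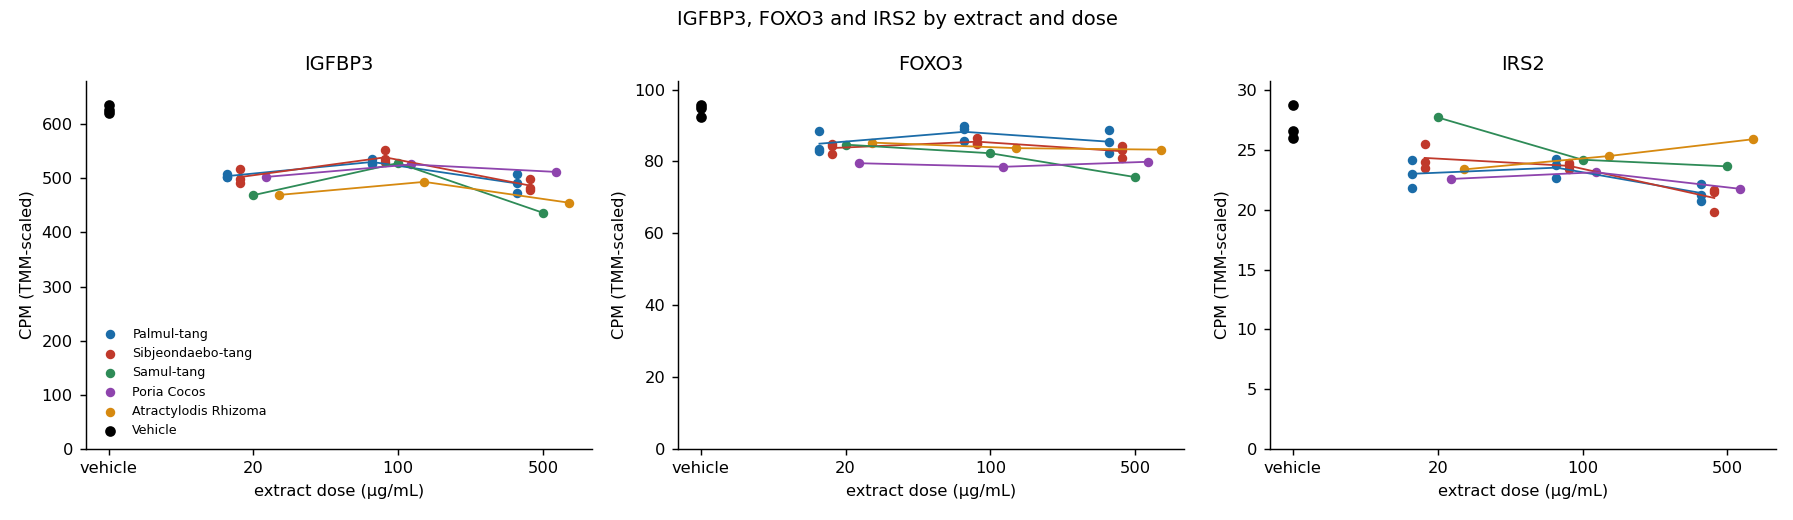
CPM of IGFBP3, FOXO3 and IRS2 in every library against extract dose in µg/mL, with vehicle at the left; points are libraries and lines join the mean at each dose. All 27 treated libraries lie below vehicle for IGFBP3 and FOXO3 and 26 of 27 for IRS2, and IGFBP3 is highest at 100 µg/mL in each extract.

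Against vehicle, then, 1 of the 10 genes rose and 8 fell in Palmul-tang at 500 µg/mL, with IGFBP5 not called, and 27.8% of all tested genes were called, 12.9% higher and 14.9% lower. At 20 µg/mL none rose and 6 fell, with 23.8% of all genes called and 13.3% lower. In Poria Cocos IGFBP1 rose and IGFBP3, IGFBP6, IGFBP7, IRS2 and FOXO3 fell, where 27.3% of all genes were called, 12.1% higher and 15.3% lower. In Atractylodis Rhizoma FOXO1 rose and IGFBP3, IGFBP4, IGFBP5, IGFBP7 and FOXO3 fell, where 27.7% were called, 12.4% higher and 15.3% lower. These comparisons share the vehicle libraries. Median log2 fold changes of the 10 ran from -0.16 at 500 µg/mL of Palmul-tang and in Poria Cocos to -0.14 in Atractylodis Rhizoma, and those of all tested genes were within 0.01 of 0. Of the calls at 500 µg/mL, that of IGFBP4 ended without vehicle replicate 1 (adjusted p = 0.0991) or 2 (0.141) or Palmul-tang 500 replicate 3 (0.267), and with no filter on low counts (0.0737). That of IGFBP6 ended without vehicle replicate 2 (0.11) or Palmul-tang 500 replicate 1 (0.0567). That of IGFBP7 ended without vehicle replicate 1 (0.0528) or 2 (0.115) or Palmul-tang 500 replicate 1 (0.0829) or 3 (0.0537). At 20 µg/mL the call of IGFBP7 ended without vehicle replicate 1 or 2 or Palmul-tang 20 replicate 2 or 3, with adjusted p from 0.053 to 0.11. The call of IGF1R at that dose ended without vehicle replicate 1 or 3 or Palmul-tang 20 replicate 1 or 3, with adjusted p from 0.0652 to 0.0904, and with no filter on low counts (0.0621). IGFBP7 in Atractylodis Rhizoma lost its call without vehicle replicate 2 (0.0519) or the 20 µg/mL library (0.0569). Calls were gained by IGF1R without the 100 µg/mL library of Poria Cocos (0.0443) or of Atractylodis Rhizoma (0.0364), by IGFBP4 without Poria Cocos at 500 (0.0132), and by IRS2 without vehicle replicate 1 (0.0457) or Atractylodis Rhizoma at 500 (0.034). In bulk RNA, fewer cells that express a gene and less of its RNA per cell cannot be told apart.

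Sibjeondaebo-tang holds the herbs of Palmul-tang and further ones. At 500 µg/mL their IGFBP1 values did not overlap, at 38.6 to 41.8 CPM in Sibjeondaebo-tang and 34.8 to 37.0 CPM in Palmul-tang; 5.24% of all tested genes were higher in Sibjeondaebo-tang without overlap at that dose. FOXO1 ran from 8.98 to 10.7 CPM in Sibjeondaebo-tang and from 9.34 to 10.9 CPM in Palmul-tang, and the libraries overlapped. The formulas are set side by side as description, without a test, since values in Sibjeondaebo-tang led to the choice.

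Across the 30 libraries, log2 CPM of IGFBP1 and FOXO1 had a Pearson r of -0.79 and a Spearman rho of -0.81. The dose series that led to the choice of both genes are among these libraries, so this correlation is description only. IGFBP3 and FOXO3 had an r of 0.73, with the vehicle libraries highest in both, and IGFBP1 and IGFBP3, neighbours on chromosome 7, had an r of -0.28. These describe libraries that share doses and extracts. Of 12682 genes ranked (mean log2 CPM 1 or more), those most like IGFBP1 were GREM1, a secreted antagonist of bone morphogenetic proteins (r = 0.93), NCOA7, a nuclear receptor coactivator (0.92), ALDH1A3-AS1 (0.90), STC2, a secreted inhibitor of PAPPA (0.90), and LPXN, a focal adhesion adaptor (0.90). The genes most opposite to it were COL13A1, a transmembrane collagen (-0.90), SELENOW, a selenoprotein (-0.90), and EPHA3, an ephrin receptor (-0.88). Most like FOXO1 were FZD4, a Wnt receptor (0.88), SYTL5 (0.87), EPHA3 (0.87), KLHL4 (0.85) and the gene listed only as ENSG00000230699 (0.85), and most opposite were LIF, a cytokine of the interleukin 6 family (-0.90), RFTN1 (-0.90) and FAM167A (-0.90). ALDH1A3-AS1 is named as an antisense gene, and the strand setting of the counting is not given in the sources used here. Its exon overlap with ALDH1A3 was not looked up, so whether some of its reads come from ALDH1A3 was not tested.

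The other genes of the pathway were taken from 6 lists of 125 genes, of which 111 passed the filter. The lists were chosen with earlier results of these data known, so their share of calls beside that of all genes is description only. In Palmul-tang at 500 against 20 µg/mL 13 rose and 6 fell, which is 17.1% of those tested beside 5.3% of all genes, and the median log2 fold change was 0.01. Sibjeondaebo-tang also had 13 that rose and 6 that fell, 17.1% beside 6.24% of all genes, and 22 genes in all were called without 500 replicate 3. Of 9 ligands, receptors and carriers 4 were tested and none was called by edgeR in Palmul-tang, IGF2R being the 1 with an unadjusted p under 0.05 (0.0118, adjusted p = 0.136). IGF1 itself, at a median of 0.117 CPM, did not pass the filter, and IGF2 had a median of 0.276 CPM and IGFBP2 of 1.46, while IGF2R, the scavenging IGF2 receptor, had 330 and the insulin receptor INSR 18.4.

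Of 10 proteases of IGF binding proteins and their inhibitors, 3 rose and 2 fell in Palmul-tang at 500 against 20 µg/mL. PAPPA, the metalloproteinase that cleaves IGFBP4 and so frees IGF, read 127, 127 and 128 CPM at 500 µg/mL, against 89.6, 86.5 and 90.0 CPM at 20 (log2 fold change 0.52 ± 0.038, edgeR, adjusted p = 1.92e-12). ADAMTS1, a matrix protease, read 87.5, 87.2 and 87.1 CPM, against 57.8, 50.1 and 54.0 CPM (0.69 ± 0.0432, adjusted p = 2.80e-14). STC2 rose by 0.17 in log2 (adjusted p = 2.47e-04), and the serine proteases PRSS23 and HTRA1 fell by 0.20 and 0.15, the last losing its call without Palmul-tang 500 replicate 1 (adjusted p = 0.0761) or 20 replicate 3 (0.088). In Sibjeondaebo-tang 4 of the 10 rose and 1 fell. ADAMTS1 had a log2 fold change of 0.82, PAPPA of 0.51, STC2 of 0.35 and STC1, another PAPPA inhibitor, of 0.14, and PRSS23 fell by 0.18. The call of STC1 ended without 500 replicate 1 (adjusted p = 0.0601) or 20 replicate 2 (0.0579), and with only the compared groups in the fit (0.0681). Of 8 CCN and related proteins, secreted proteins with an IGFBP-like domain, only CCN1 was called, with 0.38 in Palmul-tang and 0.32 in Sibjeondaebo-tang.

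Of 41 tested genes of the insulin and IGF signal cascade, 2 rose and 1 fell in Palmul-tang. PIK3CD, a catalytic subunit of phosphoinositide 3-kinase, rose by 0.53 on the log2 scale (edgeR, adjusted p = 6.12e-09), to 33.7, 33.6 and 31.7 CPM at 500 µg/mL against 22.4, 23.4 and 22.8 CPM at 20. SOCS1, a suppressor of cytokine and insulin signals, rose by 0.40 (adjusted p = 0.0365), a call that ended with DESeq2 (0.12) and, with adjusted p between 0.0805 and 0.195, without 4 of the 6 libraries, these being replicates 2 and 3 of both doses. GRB10, an adaptor that dampens both receptors, fell by 0.21 (adjusted p = 5.04e-05). In Sibjeondaebo-tang 2 rose, PIK3CD by 0.64 and SOCS1 by 0.52, and 3 fell, GRB10 by 0.17, SOCS3 by 0.23 and TSC1 by 0.14. The call of SOCS3 ended without 500 replicate 1 (adjusted p = 0.118) or 20 replicate 3 (0.0993), and with only the compared groups in the fit (0.0655). That of TSC1 ended without any 1 of the libraries but 500 replicate 3, with adjusted p between 0.0526 and 0.126, and with only the compared groups (0.168), no filter on low counts (0.139) or DESeq2 (0.0547).

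Of 19 tested FOXO paralogs and regulators, none was called in Palmul-tang, and FOXO4 differed by -0.21 in log2 (adjusted p = 0.316); in Sibjeondaebo-tang PRMT1, an arginine methyltransferase of FOXO1, rose by 0.13 (adjusted p = 0.0392), a call that ended without any 1 of 5 of its 6 libraries, with adjusted p between 0.0596 and 0.169, and with only the compared groups in the fit (0.147). Of 29 tested genes that FOXO factors are known to activate in various cells, 7 rose and 3 fell with Palmul-tang, while with Sibjeondaebo-tang the numbers were 5 and 2. SOD2, the mitochondrial superoxide dismutase, read 337, 314 and 328 CPM at 500 µg/mL of Palmul-tang, against 145, 141 and 137 CPM at 20 and 112, 113 and 111 in vehicle (log2 fold change at 500 over 20 of 1.21 ± 0.0412, edgeR, adjusted p = 2.10e-21). TXNIP, an inhibitor of thioredoxin, rose by 0.78, FBXO32, a muscle-atrophy ubiquitin ligase subunit, by 0.27 and KLF6, a zinc finger factor, by 0.25. In Sibjeondaebo-tang the same 4 rose, by 1.38, 0.83, 0.35 and 0.29. The other calls, named like HTRA1, STC1 and TSC1 after their values were seen, were GADD45A (0.32), CDKN1A (0.22) and PINK1 (0.15), which rose in Palmul-tang, and DDIT4, GABARAPL1 and BNIP3, which fell by 0.27, 0.24 and 0.23. In Sibjeondaebo-tang GADD45A rose by 0.34, and SESN3 and BNIP3 fell by 0.38 and 0.24. The call of CDKN1A ended without 500 replicate 1 or 20 replicate 1 or 3, and that of PINK1 without these or 500 replicate 2, with adjusted p between 0.0837 and 0.184.

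**Figure D4:**
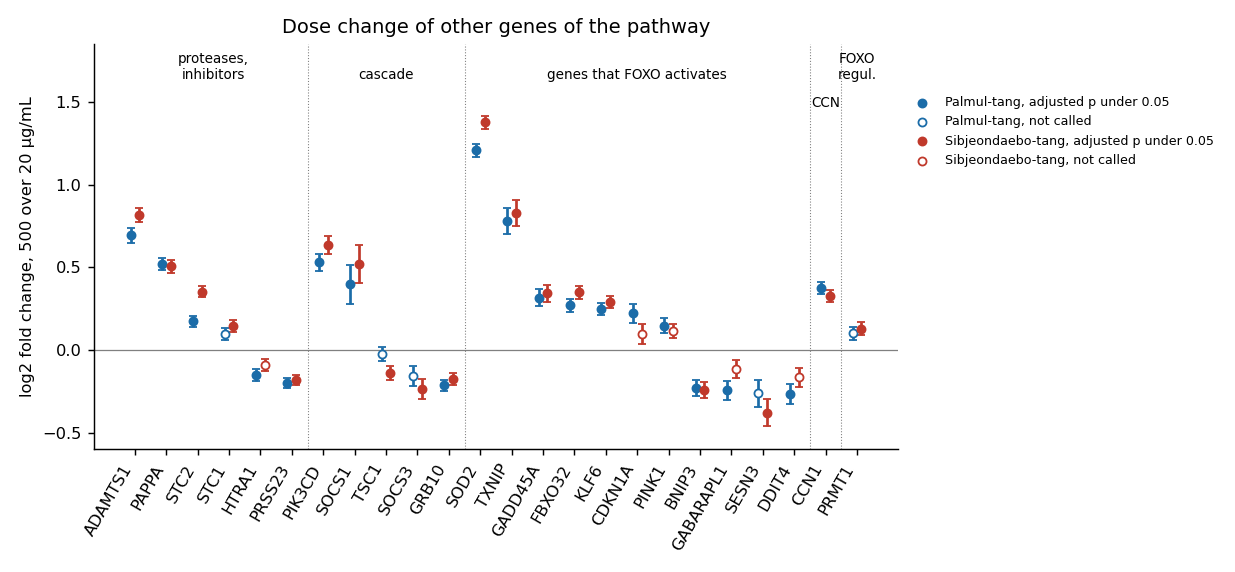
Log2 fold change at 500 over 20 µg/mL of the 24 list genes called in Palmul-tang or Sibjeondaebo-tang, by list; points are edgeR estimates from 3 libraries per dose, bars are ± 1 SE and filled points have an adjusted p under 0.05. SOD2 stands highest (1.21 and 1.38), followed by TXNIP and ADAMTS1, and most of the others lie within 0.5 of 0.

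Some markers of cell identity were called with dose and against vehicle. Of all tested genes, 5.3% were called at 500 against 20 µg/mL in Palmul-tang and 6.24% in Sibjeondaebo-tang. Of 7 tested astrocyte markers, 1 fell and none rose in Palmul-tang at 500 against 20 µg/mL, the enzyme gene GLUL (log2 fold change -0.19, edgeR, adjusted p = 0.00664); the summed level of the 10 markers other than VIM was 382 to 395 CPM at 500 and 401 to 409 CPM at 20, against 418 to 431 in vehicle. In Sibjeondaebo-tang 3 of the 7 fell, and the sum was 365 to 388 CPM at 500, against 399 to 410 at 20. Of 7 tested markers of other cell types, only MBP of myelin was called in Palmul-tang, where it rose by 0.39 (edgeR, adjusted p = 0.00845). The sum of 12 was 176 to 191 CPM at 500 and 166 to 179 at 20, against 188 to 201 CPM in vehicle. MBP was also the only one called in Sibjeondaebo-tang, where it rose by 0.57 (edgeR, adjusted p = 5.38e-05). There the sum was 177 to 191 CPM at 500 and 168 to 184 at 20. HBB was at 0 in all 30 libraries. Against vehicle, Palmul-tang at 500 µg/mL had 3 astrocyte markers that fell and none that rose, these being SOX9 (log2 fold change -0.36, adjusted p = 2.94e-08), GLUL (-0.19, 0.00123) and VIM (-0.14, 0.00178). Of the markers of other cell types 3 rose and none fell, PECAM1 by 0.98 (adjusted p = 0.011), MBP by 0.37 (0.00361) and PTPRC by 0.33 (0.00104), while CD68, the largest part of that sum, differed by -0.12 in log2 (adjusted p = 0.147). In that comparison with vehicle 12.9% of all tested genes were called higher and 14.9% lower. PECAM1 was near the floor, at a median of 0.852 CPM over the 30 libraries. The part of these markers in the results on the 10 genes was not tested.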

How the data were processed

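RNA sequencing of 30 libraries of SW1783 cells was analysed from the deposited table of expected counts per gene, which the authors made with RSEM 1.3.3 after STAR 2.7.3a, Trim Galore 0.6.5 and FastQC 0.11.9, on hg38, per the submitters' processing notes. The annotation release and counting strand are not given in the sources used here. These deposited expected counts are estimates, and 24% of nonzero values were not whole. They were rounded here. The table held 279 columns, and 249 of them were not used. Of 60675 gene IDs, 56558 had a symbol and 57055 a place in GENCODE release 29.

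Libraries were scaled by TMM and filtered with filterByExpr, which kept 17839 genes. All 30 libraries entered 1 fit with a mean for each group in edgeR 4.0.16 (R 4.3.3, robust quasi-likelihood), and p-values were adjusted over all tested genes by Benjamini-Hochberg at 0.05. A gene is called past that threshold. Log2 CPM in correlations used a prior count of 2. For the 10 genes, comparisons were Palmul-tang doses with each other and with vehicle, and the mean of the 3 doses of Poria Cocos and of Atractylodis Rhizoma with vehicle. Sibjeondaebo-tang at 500 against 20 µg/mL was tested for the other pathway genes and markers. Fits over the whole table also gave values for the 10 genes in Sibjeondaebo-tang and Samul-tang, and their tests there are not reported, since these series led to the choice. Intervals are at 95% and assume a normal error.

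Members and lists were chosen with earlier results of these data known. The rule for named genes was the 10 genes and up to 4 called genes of each list by smallest p in each formula. For IGFBP1 and FOXO1 it added the 5 genes with the highest Pearson r and the 3 with the lowest, that is most negative, r. The comparison of 500 with 100 µg/mL and the values without Sibjeondaebo-tang 500 replicate 3 were added after seeing the data.

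Simulated counts served to test the procedure for the dose contrast of Palmul-tang (500 against 20 µg/mL). The fit held 17510 genes, and 200 genes were changed, all of them averaging 5 CPM or more. Of these changes 82.1% at 1.25-fold, 95.5% at 1.5-fold and 100% at 2-fold were recovered, and 12 of 197 calls were false. Recovery of changes in genes below that level was not tested. Alternatives were the DESeq2 1.42.0 Wald test, its size factors within edgeR, no filter on low counts, a replicate block, only the compared groups in the fit, and each library left out.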

Additional observations from a re-analysis of the deposited data

How the results depend on the processing

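Of 1188 alternative values computed for single genes, 1091 kept their side of the threshold, 84 lost it and 13 gained it. The sign changed in 23, none of them called before or after (adjusted p of 0.574 or more), among them IGFBP1 in Atractylodis Rhizoma against vehicle and FOXO1 in Poria Cocos. In Palmul-tang at 500 against 20 µg/mL 2 to 4 of the 10 genes were called over all alternatives, against vehicle 6 to 9, at 20 µg/mL against vehicle 4 to 7, in Poria Cocos 6 to 7 and in Atractylodis Rhizoma 5 to 8. At 100 against 20 µg/mL the count was 0 with only the compared groups in the fit and 0 to 1 with a library left out. At 500 against 100 µg/mL it was 1 with no filter on low counts and 1 to 2 with a library left out. IGFBP1 at 500 against 20 µg/mL ranged from 0.77 to 0.94 and FOXO1 from -0.48 to -0.36, called in each alternative. Libraries that share a replicate number had a median correlation of deviations of 0.05 over 63 pairs, from -0.21 to 0.33, and 22 exceeded 0.1; for 126 pairs of different number the median was -0.03 and 13 exceeded 0.1. Pairs of the same number thus tended to be more alike. The middle part of each sample code repeats the replicate number, across both larger formulas and all doses, and its meaning is not labelled. Whether the numbers pair the samples was not settled. The main fit does not pair the samples. Over all genes that fit had 946 calls in Palmul-tang at 500 against 20 µg/mL, and there were 1036 with a replicate block. With a replicate block, 3 of the 10 genes were called at 500 against 20 µg/mL and IGF1R gained a call in Poria Cocos (log2 fold change -0.15, adjusted p = 0.0433); no other call of the 10 changed. Over all genes, Sibjeondaebo-tang at 500 against 20 µg/mL had 1113 calls, and 636 with only the compared groups in the fit, and Palmul-tang at 100 against 20 had 29, and 51 with no filter on low counts and 15 to 19 without Palmul-tang 100 replicate 1 or 2 or Palmul-tang 20 replicate 2 or 3. At 500 against 100 it had 445, and 282 without Palmul-tang 500 replicate 2. For FOXO1 in the single libraries of Poria Cocos and Atractylodis Rhizoma the counting intervals are wider than the differences between doses.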

Other observations

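TXNIP, a gene that FOXO factors and glucose-sensing factors activate, read 198 CPM in the single Poria Cocos library at 500 µg/mL, 17.7 CPM at 100 and 8.42 CPM at 20. In the other 29 libraries it ran from 6.41 CPM, in Atractylodis Rhizoma at 500 µg/mL, to 22.9 CPM, in Samul-tang at 500. The Poria Cocos value has no replicate check, and IGFBP1 and FOXO1 in that library read 33.6 and 11.7 CPM, within the range of the other extracts at that dose. It was named after its values were seen.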
